A study of Homo sapiens with 20 samples.

Results

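The purine and pyrimidine synthesis enzymes are 34 genes, taken by gene symbol from the array's annotation, that build, recycle and phosphorylate nucleotides or convert them to deoxynucleotides. Each gene was read by 1 probe set, the one with the highest mean signal over the 20 arrays. A probe set of a single gene was found for 31 of the 34, out of 11963 genes with such a probe set. All 31 passed the filter on low signals and were among the 7547 genes tested. ADSS2 was not measured here, and the only probe sets of NME2 and UCK2 list several genes, so these 3 have no value. The arrays hold RNA of 10 established lines of T-cell acute lymphoblastic leukemia (T-ALL), a cancer of immature T cells, all with activating NOTCH1 mutations. The lines are HPB-ALL, CUTLL1, KOPTK1, P12-ICHIKAWA, ALL-SIL, PF382, DND41, RPMI8402, MOLT3 and CCRF-CEM. Each line gave 1 array after 72 h with CompE, a gamma-secretase inhibitor that blocks the cleavage releasing active NOTCH1, and 1 array after 72 h with the vehicle DMSO. The dose of 100 nM is given for the series as a whole and in the labels of some CompE arrays only. Both arms carry the NOTCH1 mutations, and no line without one was measured. The comparison asks how these enzymes' transcripts differ when NOTCH1 signaling is inhibited.

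Cells make purines on a phosphoribosyl pyrophosphate (PRPP) base through a chain of steps that ends at inosine monophosphate (IMP), from which AMP and GMP are formed, and they also salvage free purine bases. Pyrimidines are assembled as a ring first and reach UMP, from which CTP is made. Ribonucleotide reductase then turns ribonucleotides into the deoxynucleotides that DNA replication uses, and dividing lymphoblasts draw heavily on both routes. MYC, a direct NOTCH1 target in T-ALL, is known to raise transcription of many of these enzymes, and E2F factors are known to raise several deoxynucleotide enzymes at the start of S phase.

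The deposited signals had been scaled so that each array's mean without the 2% extremes at each end lay between 249.9 and 250.1. All 10 T-lineage markers were above the filter, with summed signals of 13000 to 29500 in CompE and 13100 to 27300 in DMSO, and 2 of them were called, CD3G (-0.54, limma adjusted p = 0.0271) and LCK (0.26, limma adjusted p = 0.0223). Of the other lineages, 0 of 5 myeloid, 0 of 2 erythroid, 3 of 4 B-cell, 1 of 4 epithelial and 3 of 4 fibroblast markers measured were above the filter, and none of these was called. The ratio of 3′ to 5′ ACTB signal, a sign of RNA integrity, had a median of 1.41 in CompE (1.22 to 9.76) and 1.19 in DMSO (1.02 to 3.32), and it was higher with CompE in 9 of 10 lines. KOPTK1 held the highest ratio in both arms, so values without it are given below for the called enzymes and for the calls that leaving it out added. In bulk RNA a smaller number of cells of a type and less RNA per cell cannot be told apart.

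Among the 31 enzymes, 7 fell under CompE and 0 rose. They were NME1, GART, ATIC, PAICS, PFAS, CTPS1 and HPRT1, with log2 changes between -0.78 and -0.35. A change is CompE minus DMSO on log2(signal + 16), and a gene was called when its adjusted p in limma, paired by line and adjusted over all genes tested, was below 0.05. The 7 are 22.6% of the enzymes tested, while 3.30% of all genes were called lower and 3.96% were called higher (249 and 299 genes). With arrays centred on their median, the split over all genes was 340 lower and 114 higher. The median change was -0.22 over the 31 enzymes and 0.0426 over all genes, with 25 enzymes below 0 and 6 above. At an unadjusted p below 0.05, 16 enzymes were lower and 0 were higher, against 10.1% and 15.3% of all genes. Of the 31, 15 were lower with CompE in at least 8 lines, and PRPS2, GART, ATIC, NME1 and DUT were lower in all 10. Over all 7547 genes tested, 989 were lower in at least 8 lines and 116 in all 10, and 41.3% had a change below 0.

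**Figure D1:**
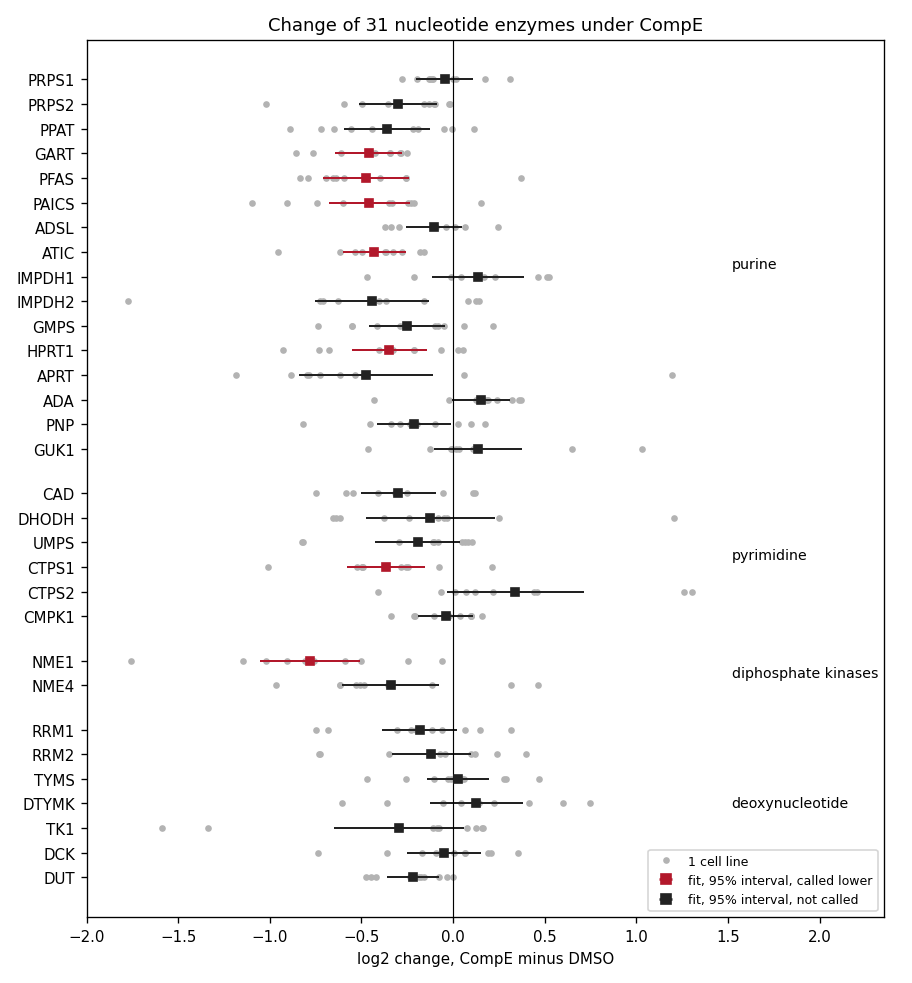
Log2 change (CompE minus DMSO, horizontal axis) of the 31 measured enzymes, grouped by pathway. Grey points are the 10 cell lines, and squares with bars are the fitted change with its 95% interval, red where called. The 7 red squares lie between -0.78 and -0.35, and 0 of the 7 deoxynucleotide enzymes are red. Of all genes tested, 3.30% were called lower.

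The call depended on which lines were included. Fits that left out 1 line at a time called GART, PAICS, ATIC and NME1 lower in all 10 of them, PFAS in 7, HPRT1 in 4 and CTPS1 in 3. Between 4 and 13 enzymes were called lower in these fits, with 4 when DND41, HPB-ALL or RPMI8402 was left out and 13 when KOPTK1 was. The share of all genes called lower was 1.43%, 1.14% and 1.14% without DND41, HPB-ALL and RPMI8402, and 6.32% without KOPTK1. PPAT, IMPDH2, GMPS, APRT, CAD and DUT were the 6 added without KOPTK1. The 7 were still called without it, with changes of larger size for NME1 (-0.80), GART (-0.465) and ATIC (-0.44) than over all lines. Those of PFAS (-0.457), PAICS (-0.41), CTPS1 (-0.29) and HPRT1 (-0.28) were smaller, as was that of PRPS2 (-0.22), which was not called. With the ACTB ratio as a covariate, 5 enzymes and 2.19% of all genes were called lower. GART, ATIC and NME1 were still called, and APRT and CAD joined. The other 4 were not called: PFAS was at -0.47 (limma adjusted p = 0.06), close to its value without the covariate, PAICS at -0.38 (0.0886), CTPS1 at -0.27 (0.172) and HPRT1 at -0.23 (0.217).

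The promoters of 4 of the called enzymes are shown because they hold letters that MYC or the NOTCH1 partner RBPJ is known to read. The E-box CACGTG, the same on both strands, is the core that MYC with MAX binds, and TGGGAA is the core of RBPJ sites and reads as TTCCCA on the other strand. The motifs can share letters where they meet, but no enzyme held both. Each window runs from 250 bases before to 50 bases after an annotated start, from RefSeq (GRCh38.p14), read 5′ to 3′ on the gene's strand, and capitals mark the motif. They are NME1 at chr17:51153309-51153608, ATIC at chr2:215311809-215312108, PAICS at chr4:56435502-56435801 and HPRT1 at chrX:134459915-134460214, all on the plus strand.
NME1: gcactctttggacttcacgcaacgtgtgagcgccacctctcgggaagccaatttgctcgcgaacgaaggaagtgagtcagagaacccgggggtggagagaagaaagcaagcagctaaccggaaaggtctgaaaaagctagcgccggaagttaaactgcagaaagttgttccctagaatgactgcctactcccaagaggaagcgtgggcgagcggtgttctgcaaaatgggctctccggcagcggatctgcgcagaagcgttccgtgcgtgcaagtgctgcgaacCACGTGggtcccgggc
ATIC: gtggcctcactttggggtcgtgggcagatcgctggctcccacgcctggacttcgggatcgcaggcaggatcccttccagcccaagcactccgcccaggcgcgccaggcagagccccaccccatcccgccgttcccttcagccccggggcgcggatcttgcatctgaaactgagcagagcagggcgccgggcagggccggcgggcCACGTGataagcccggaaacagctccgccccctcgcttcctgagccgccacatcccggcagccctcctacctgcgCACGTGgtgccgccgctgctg
PAICS: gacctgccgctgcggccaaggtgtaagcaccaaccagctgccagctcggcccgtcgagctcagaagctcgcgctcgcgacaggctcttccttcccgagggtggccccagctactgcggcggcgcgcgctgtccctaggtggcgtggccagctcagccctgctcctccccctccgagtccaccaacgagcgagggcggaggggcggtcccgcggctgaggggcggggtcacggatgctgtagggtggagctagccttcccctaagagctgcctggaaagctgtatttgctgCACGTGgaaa
HPRT1: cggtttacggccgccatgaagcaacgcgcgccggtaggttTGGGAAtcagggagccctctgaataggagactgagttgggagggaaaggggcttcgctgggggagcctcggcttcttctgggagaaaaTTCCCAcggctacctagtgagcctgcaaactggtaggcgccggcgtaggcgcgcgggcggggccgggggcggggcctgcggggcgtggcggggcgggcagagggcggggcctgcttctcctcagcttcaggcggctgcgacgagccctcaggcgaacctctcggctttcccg
The window of NME1 holds the E-box at position 35 after the start, and that of ATIC holds it at -46 and at 30. The E-box of PAICS, at chr4:56435792-56435797, also lies in the minus-strand window of PPAT, the enzyme of the first committed purine step, because these neighbouring genes start close together on opposite strands. The windows of other annotated PAICS starts, at chr4:56410257-56410556 and chr4:56436010-56436309, hold no E-box. HPRT1 holds the RBPJ letters at -210 and -122. Windows were found for 32 of the 34 enzymes. An E-box was in a window of 6 of them (PPAT, PAICS, ATIC, DHODH, NME1 and DCK), while 8.77% of 27305 genes and 7.26% of 35116 windows held one. Of the 7 called enzymes 3 held it. The RBPJ letters were in 9 of 32 enzymes, 2 of them called (HPRT1 and CTPS1), while 28.1% of genes and 24.03% of windows held them. PPAT, DHODH and DCK held an E-box with changes of -0.36, -0.12 and -0.05 that were not called. GART and PFAS held neither motif and fell. The E-box of PPAT and PAICS is the same site, counted for both.

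The steps from PRPP to IMP held 4 of the 7 called enzymes. Of the 6 enzymes PPAT, GART, PFAS, PAICS, ADSL and ATIC, 4 fell, 0 rose, and the median change was -0.443. GART, which carries out 3 reactions of the chain on a single protein, had signals from 189.1 to 487.6 with a median of 309.9 in CompE, against 262.6 to 840.4 with a median of 448.5 in DMSO. CCRF-CEM was lowest and PF382 highest in both arms, and although the ranges overlap, the CompE array was the lower in every line. Its change was -0.46 ± 0.087 (SE, n = 10 lines, limma adjusted p = 0.0106), so GART fell by 27.4%. Of its 4 other probe sets, the 3 above the filter were at -0.49, -0.41 and -0.14, and a dim one was at 0.12. When its probe sets were averaged, GART was at -0.28 and was not called (limma adjusted p = 0.075).

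PFAS, which forms the amidine intermediate after GART's early reactions, had signals from 190.5 to 482.0 (median 289.5) in CompE and from 305.0 to 790.3 (median 365.7) in DMSO. It was lower with CompE in 9 lines, and P12-ICHIKAWA was the exception, at 451.0 in CompE and 345.7 in DMSO. The change was -0.47 ± 0.111 (SE, n = 10 lines, limma adjusted p = 0.0212). PAICS, which performs the carboxylation and the aspartate addition that follow, had signals from 930.7 to 2521 (median 1776) in CompE and from 1751 to 3087 (median 2378) in DMSO. Here too P12-ICHIKAWA was the only line not lower, and HPB-ALL, at 930.7 in CompE and 2011 in DMSO, differed most. The change was -0.46 ± 0.104 (SE, n = 10 lines, limma adjusted p = 0.0187), and its second bright probe set was at -0.61 and lower in 10 lines.

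ATIC, the bifunctional enzyme of the last steps to IMP, had signals from 710.3 to 1428 (median 825.3) in CompE and from 796.2 to 2080 (median 1147) in DMSO. The CompE array was the lower in all 10 lines, with changes from -0.96 in HPB-ALL to -0.16 in CUTLL1. The fitted change was -0.43 ± 0.082 (SE, n = 10 lines, limma adjusted p = 0.0113). PPAT, which commits PRPP to purines, was at -0.36 ± 0.110 with an adjusted p of 0.0553 in limma and was not called, although it was lower in 9 lines. Its signals ran from 137.4 to 372.3 (median 244.8) in CompE and from 159.2 to 592.1 (median 283.7) in DMSO. Its second probe set was at -0.45 and lower in 10 lines, and PPAT was called when its probe sets were averaged (-0.41, limma adjusted p = 0.0187). It was also called without KOPTK1, at -0.41 (limma adjusted p = 0.0194), and without P12-ICHIKAWA, at -0.40 (limma adjusted p = 0.0488). Of 22 alternative runs, described with the processing below, 6 called PPAT. Its limma adjusted p with 1 line left out reached 0.141. ADSL, which removes fumarate at 1 of these steps and again on the way to AMP, was at -0.10 ± 0.073 (SE) and was not called. The 95% interval of its change was -0.26 to 0.05, and its second probe set was at -0.09.

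**Figure D2:**
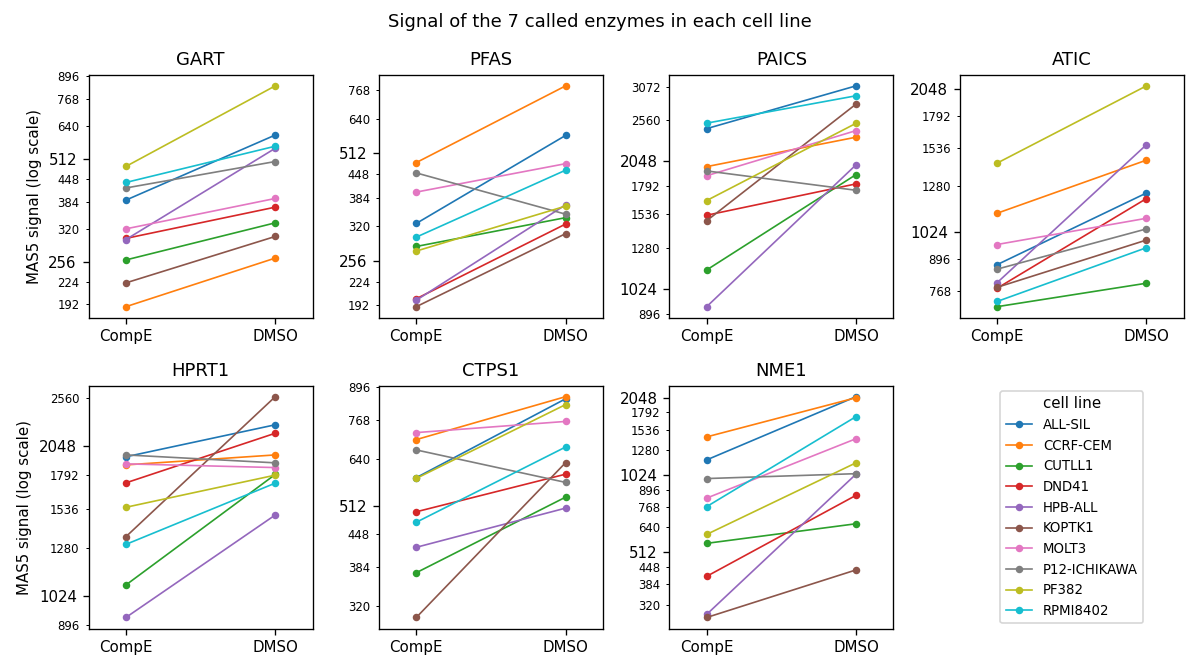
MAS5 signal on a log scale of the 7 called enzymes, CompE on the left and DMSO on the right of each panel, with a line joining the 2 arrays of a cell line. GART, ATIC and NME1 fall in all 10 lines, and P12-ICHIKAWA runs the other way in PFAS, PAICS, HPRT1 and CTPS1.

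Averaged over the 6 enzymes to IMP, the change per line was -0.38 ± 0.213 (SD, n = 10), from -0.83 in HPB-ALL to 0.0088 in P12-ICHIKAWA, and below 0 in 9 lines. P12-ICHIKAWA was also the line in which MYC was not lower, with a MYC signal of 888.9 in CompE and 609.1 in DMSO. In the fit over all lines MYC fell by 1.50 ± 0.283 on the log2 scale (SE, limma adjusted p = 0.0108), with mean signals of 628.9 in CompE and 1815 in DMSO. Line by line, the order of the MYC changes was not that of the enzymes. KOPTK1 had the MYC change of greatest size, -3.85, with a mean of -0.36 for the enzymes to IMP, whereas HPB-ALL had a MYC change of -1.59 with -0.83. Over the 10 lines, Pearson's r between them was 0.425 and Spearman's rho 0.576, and r was 0.28 over the 8 lines left without KOPTK1 and P12-ICHIKAWA. These are descriptions, since both measures come from the same pair of arrays in each line.

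Upstream and downstream of this chain, the purine enzymes were less uniform. Of all 16 purine enzymes tested, 5 fell, 0 rose, and the median change was -0.324. PRPS1 and PRPS2, the isozymes that make PRPP, were at -0.05 ± 0.074 and -0.30 ± 0.101 (SE), and neither was called. Below IMP, IMPDH2, the main IMP dehydrogenase of dividing lymphocytes and the entry to guanine nucleotides, was at -0.44 ± 0.146 with a limma adjusted p of 0.0734, and GMPS, which completes GMP, was at -0.25 ± 0.098 (0.123). IMPDH2 varied widely: HPB-ALL was at 365.2 in CompE and 1290 in DMSO, whereas KOPTK1, P12-ICHIKAWA and RPMI8402 were a little higher with CompE. Without KOPTK1, IMPDH2 was at -0.50 and GMPS at -0.30, with limma adjusted p of 0.0342 and 0.0363. Of 22 alternative runs, that was the only 1 to call either. GUK1, the kinase that makes GDP, was at 0.13 ± 0.113 (SE) and was not called.

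Salvage held the fifth called purine enzyme. HPRT1, which returns hypoxanthine and guanine to nucleotides, had signals from 927.4 to 1969 (median 1637) in CompE and from 1491 to 2579 (median 1877) in DMSO. It was lower in 8 lines, most in KOPTK1, and MOLT3 and P12-ICHIKAWA were slightly higher with CompE. The change was -0.35 ± 0.096 (SE, n = 10 lines, limma adjusted p = 0.0398), and, as given above, 6 of the 10 fits without a line did not call it. APRT, which salvages adenine, was at -0.48 ± 0.173 (SE) and was not called (limma adjusted p = 0.1), with KOPTK1 against the rest, at 423.2 in CompE and 175.7 in DMSO. Without that line APRT was at -0.66 (limma adjusted p = 0.00357), and 2 of 22 alternative runs called it. The catabolic enzymes ADA, the adenosine deaminase whose loss causes severe combined immunodeficiency, and PNP, which splits inosine and guanosine, were at 0.15 ± 0.075 and -0.21 ± 0.095 (SE), and neither was called. ADA was higher in 8 lines by the probe set used, while its other bright probe set was at -0.09.

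In the pyrimidine route, 1 of the 6 enzymes tested fell, 0 rose, and the median change was -0.159. The one that fell was CTPS1, the CTP synthase on which lymphocyte proliferation is known to depend. Its signals ran from 303.2 to 723.0 (median 540.6) in CompE and from 507.0 to 856.1 (median 651.8) in DMSO. It was lower in 9 lines, most in KOPTK1, with P12-ICHIKAWA again higher under CompE, and the change was -0.37 ± 0.101 (SE, n = 10 lines, limma adjusted p = 0.039). CAD, the trifunctional protein of the first pyrimidine steps, was at -0.30 ± 0.096 (SE) and lower in 8 lines, with a limma adjusted p of 0.0672. Its lowest signals were those of KOPTK1, 208.1 in CompE and 191.8 in DMSO, and without that line CAD was called at -0.34 (limma adjusted p = 0.0214). Of 22 alternative runs, 5 called CAD. DHODH, the mitochondrial dehydrogenase of the route, UMPS, which forms UMP, and CMPK1, which phosphorylates UMP and CMP, were at -0.12, -0.19 and -0.04, and none was called.

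The nucleoside diphosphate kinases, which move phosphate between purine and pyrimidine nucleotides, held the change of greatest size among the enzymes. NME1 had signals from 285.3 to 1439 (median 685.4) in CompE and from 437.0 to 2064 (median 1088) in DMSO. It was lower in all 10 lines, with changes from -1.76 in HPB-ALL to -0.06 in P12-ICHIKAWA. The change was -0.78 ± 0.129 (SE, n = 10 lines, limma adjusted p = 0.007), so NME1 fell by 41.8%. NME4, the mitochondrial family member, was at -0.34 ± 0.126 (SE, limma adjusted p = 0.104) and lower in 8 lines.

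Of the 7 deoxynucleotide enzymes, none was called by limma in either direction, 1 (DUT) was lower at an unadjusted p below 0.05, and the median change was -0.12. Over all genes 3.30% were called lower and 3.96% higher, so no call among 7 enzymes is near the share of all genes. DUT, which removes dUTP, was at -0.22 ± 0.067 (SE, limma adjusted p = 0.0565), with signals from 1298 to 3038 (median 1743) in CompE and from 1449 to 3202 (median 2283) in DMSO. It was lower in all 10 lines, though by almost nothing in KOPTK1. Of 22 alternative runs, 3 called it: without KOPTK1 (-0.24, limma adjusted p = 0.0237), with arrays centred on their median (-0.29, limma adjusted p = 0.0287) and with the 60th percentile filter (limma adjusted p = 0.0455). The other runs did not, among them that with the ACTB covariate (-0.27, limma adjusted p = 0.0694). The other DUT probe sets, both bright, were at -0.36 and -0.26, and lower in 10 and 8 lines. The 2 subunits of ribonucleotide reductase, RRM1 and RRM2, were at -0.18 ± 0.097 and -0.12 ± 0.102 (SE). TYMS, which makes the thymine nucleotide, was at 0.03 ± 0.080, and DTYMK, the kinase after it, at 0.13 ± 0.121 (SE). The second probe sets of RRM1, RRM2 and TYMS were at -0.41, -0.09 and -0.16. The salvage kinases TK1 and DCK, for thymidine and deoxycytidine, were at -0.30 ± 0.168 and -0.05 ± 0.095 (SE).

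These averages covered a split between lines. The mean change of the 7 enzymes was -0.61 in CUTLL1 and -0.55 in HPB-ALL, and between -0.13 and 0.093 in the other 8 lines. TK1 shows it most: its signal was 138.8 in CompE and 375.8 in DMSO in CUTLL1, and 129.4 in CompE and 421.0 in DMSO in HPB-ALL. The same 2 lines were at -1.02 and -1.13 for the mean of 21 other G1/S genes. That list holds replication licensing, clamp and polymerase genes, and also CCNE1, CCNE2, E2F1, FEN1 and UNG. Of these 21, 1 fell (UNG, -0.55 ± 0.149 SE, limma adjusted p = 0.0363), 0 rose, and the median change was -0.266. The share called lower, 4.76%, was close to the 3.30% of all genes. At an unadjusted limma p below 0.05, however, 10 of the 21 were lower and 0 were higher, against 10.1% and 15.3% of all genes. A change below 0 was found for 20 of the 21, against 41.3% of all genes. Over the 10 lines, Pearson's r between the deoxynucleotide and G1/S means was 0.952 and Spearman's rho 0.842. Without CUTLL1 and HPB-ALL, r was 0.526 over 8 lines, so the value of r rests on these 2 lines. The enzymes to IMP had an r of 0.415 with the G1/S mean and a rho of 0.006, and an r of -0.195 without the same 2 lines. The deoxynucleotide mean had an r of -0.243 and a rho of -0.309 with the MYC change. All of these values share arrays within a line.

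**Figure D3:**
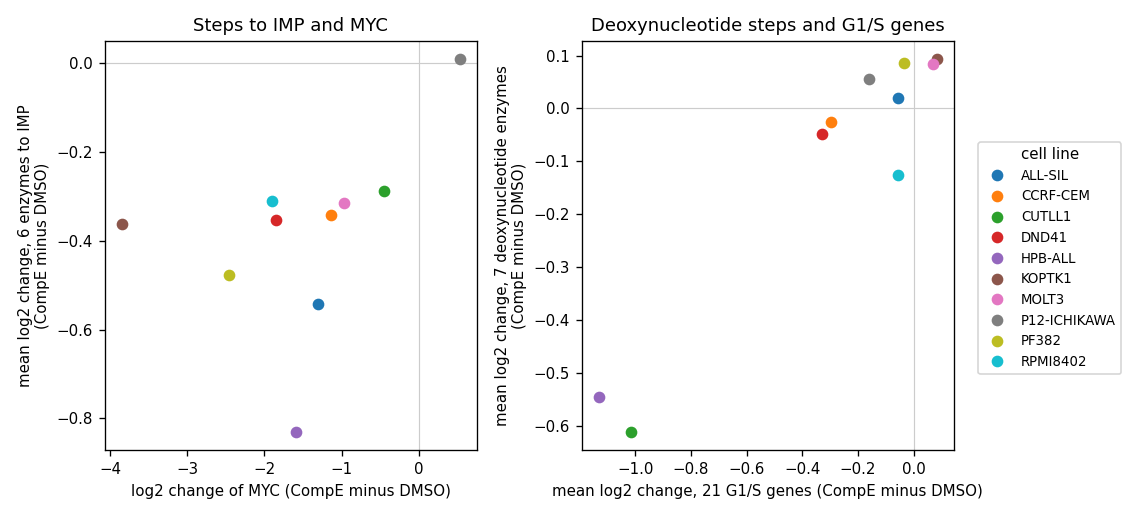
Mean log2 change (CompE minus DMSO) of the 6 enzymes to IMP against the change of MYC (left) and of the 7 deoxynucleotide enzymes against the mean of 21 G1/S genes (right), with 1 point per cell line. On the right CUTLL1 and HPB-ALL lie apart at -0.61 and -0.55, and on the left P12-ICHIKAWA alone lies above 0.

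Set side by side per line, the purine mean was below 0 in 10 of 10 lines (-0.25 ± 0.160), the pyrimidine mean in 7 (-0.11 ± 0.163), the diphosphate kinase mean in 9 (-0.56 ± 0.327) and the deoxynucleotide mean in 5 (-0.10 ± 0.261, SD, n = 10 each). These means cover 16, 6, 2 and 7 enzymes, and the 2 diphosphate kinases are NME1 and NME4. HPB-ALL was at -0.30 or lower in all 4 means, although NME4 was dim there (41.8 in CompE, 25.8 in DMSO) and changed by 0.47. ALL-SIL differed between them, at -0.54 for the enzymes to IMP and -0.43 for the pyrimidine enzymes, but at 0.02 for the deoxynucleotide enzymes. In that line all 16 purine enzymes were lower with CompE, and in P12-ICHIKAWA 7 were. PF382 and MOLT3 showed a like split, at -0.48 and -0.31 for the enzymes to IMP and 0.09 and 0.08 for the deoxynucleotide enzymes.

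The changes of 4 pairs of enzymes were set against each other. The differences were tested within lines with exact two-sided sign-flip permutation tests, adjusted over the 4 pairs. IMPDH2 minus IMPDH1 was -0.58 ± 0.664 on the log2 scale (SD, n = 10), below 0 in 9 lines (exact p = 0.0176, adjusted 0.0234), and -0.52 with quantile normalization (exact adjusted p = 0.0521). IMPDH1, the isozyme that most tissues express constitutively, was at 0.14 ± 0.119 (SE) and had signals from 56.1 to 177.7 (median 120.9) in CompE and from 67.5 to 206.1 (median 102.9) in DMSO. CCRF-CEM was the exception, at -0.16 for IMPDH2 and -0.47 for IMPDH1. CTPS1 minus CTPS2 was -0.71 ± 0.614 (SD, n = 10) and below 0 in 9 lines, and it was -0.94 with a pseudocount of 1 and -0.50 with 64, so its size follows the pseudocount. Its test counted toward the adjustment over the 4 pairs, but its p is not given, because CTPS2 was dim. CTPS2 signals ran from 16.3 to 123.7 (median 42.3) in CompE and from 5.21 to 130.0 (median 26.0) in DMSO. The filter lay at a signal of 34.8, and the DMSO median of CTPS2 was below it. Its own change, 0.34 ± 0.176 (SE), was not called, and MOLT3 and RPMI8402, at 1.30 and 1.26, were far above the other lines.

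PRPS1 minus PRPS2 was 0.25 ± 0.273 (SD, n = 10), above 0 in 8 lines (exact p = 0.0176, adjusted 0.0234). PRPS1 signals ran from 471.6 to 1391 (median 955.8) in CompE and from 576.5 to 1120 (median 1038) in DMSO, and PRPS2 signals from 252.6 to 698.1 (median 471.7) in CompE and from 272.6 to 1281 (median 570.5) in DMSO. This pair depended on the probe set: the second probe set of PRPS1 was at -0.38, and when its probe sets were averaged the difference was 0.09 (exact adjusted p = 0.438). RRM1 minus RRM2, subunits of a single enzyme and not isozymes, was -0.06 ± 0.324 (SD, n = 10), below 0 in 6 lines, and was not called (exact p = 0.568). A second RRM1 probe set was at -0.41, and with the mean of probe sets that difference was -0.19 (exact adjusted p = 0.0117).

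**Figure D4:**
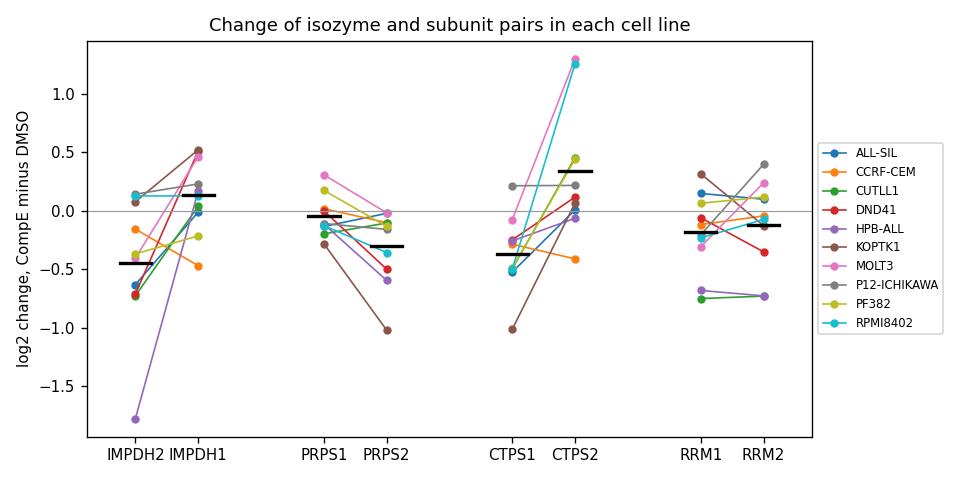
Log2 change (CompE minus DMSO) of each member of 4 pairs, with lines joining the 2 genes in a cell line and black bars at the mean of 10 lines. The mean of IMPDH2 lies below that of IMPDH1 by 0.58 and that of CTPS1 below that of CTPS2 by 0.71, and MOLT3 and RPMI8402 are highest for CTPS2.

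Most of the spread of these enzymes lay between lines. The line accounted for a median of 78.4% of an enzyme's sum of squares over the 20 arrays, and for 80.3% over all genes. In DMSO, 24 of 31 enzymes spanned more than 1 log2 unit between the lowest and the highest line, with a median span of 1.33. NME4 spanned 4.87 on log2(signal + 16), with HPB-ALL at 41.8 in CompE and 25.8 in DMSO, the second of which is under the filter's signal so that the span depends on the pseudocount, and ALL-SIL at 847.9 in CompE and 1210 in DMSO. TK1 spanned 3.37, from PF382 (57.7 in CompE, 63.4 in DMSO) to ALL-SIL (759.0 in CompE, 802.5 in DMSO). DCK, which activates cytarabine and other nucleoside drugs of leukemia, spanned 2.88, and CTPS2, dim in most lines, 2.78. P12-ICHIKAWA stood alone for DCK, at 270.3 in CompE and 269.5 in DMSO, while the other lines lay at or above 935.0 in CompE and 816.8 in DMSO. GMPS had the smallest span, 0.72.

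**Figure D5:**
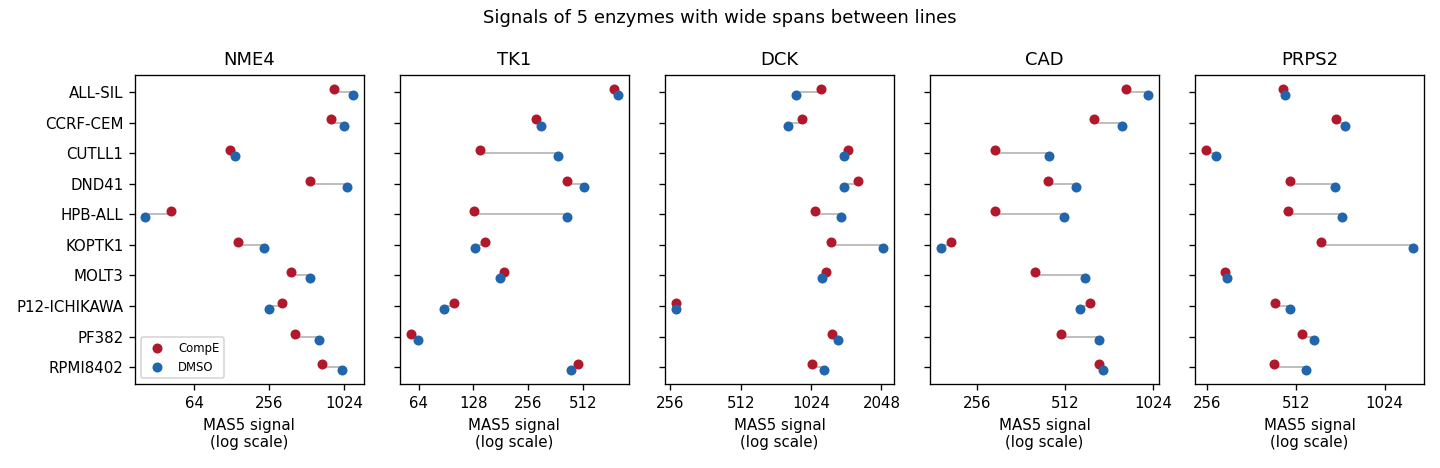
MAS5 signal (log scale) in each cell line, CompE in red and DMSO in blue, of 5 enzymes with wide spans between lines. HPB-ALL is lowest for NME4, P12-ICHIKAWA for DCK (270.3 and 269.5) and KOPTK1 for CAD (208.1 and 191.8), in both arms.

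Beyond the 34 enzymes, a list of 45 further nucleotide genes had 33 with a probe set and 25 tested. Of these 25, 4 fell and 1 rose, with a median change of 0.0555. Among all genes tested, 3.30% were called lower and 3.96% were called higher, with a median change of 0.0426. The share of this list called lower was thus above that of all genes, while the share called higher was close to it. SLC29A1, the transporter that takes up nucleosides, was at mean signals of 242.1 in CompE and 415.8 in DMSO (-0.67 ± 0.132, limma adjusted p = 0.0123) and lower in 9 lines. DCTD, which deaminates dCMP toward thymine nucleotides, averaged 322.9 in CompE and 441.0 in DMSO (-0.42 ± 0.088, limma adjusted p = 0.0143), with CompE the lower array in each of the 10 lines. ADK, which phosphorylates adenosine, fell by 0.41 ± 0.119 (limma adjusted p = 0.0465), and DCTPP1, which clears dCTP and modified pyrimidine nucleotides, by 0.35 ± 0.095 on the log2 scale (limma adjusted p = 0.0395). AMPD3, an AMP deaminase, was the one that rose, with mean signals of 387.0 in CompE and 276.3 in DMSO (0.48 ± 0.104, limma adjusted p = 0.0157), higher in all 10 lines. MTAP, which recycles methylthioadenosine and is often deleted in T-ALL, averaged 40.8 in CompE and 59.8 in DMSO and was not called (limma adjusted p = 0.357).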

How the data were processed

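RNA of 10 cell lines, each with CompE and with DMSO, was measured on 20 Affymetrix arrays. The deposited values are linear intensity signals of the MAS5 program, per the submitters' processing notes, with its version not given in the sources used here. MAS5 subtracts mismatch signal, so low values are noisy, and after scaling to a common mean a change in total RNA per cell is not visible. Of 22277 probe sets, 62 controls were left out, and the platform annotation gave 1 gene for 19070, several for 1043, and left 2164 unlisted. Of the 19064 used, 19052 matched RefSeq by gene identifier.

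A gene's probe set of highest mean log2(signal + 16) was kept, and genes below the 40th percentile of mean log2 signal (34.8) were left out. Values were analysed as log2(signal + 16), which understates the change of dim genes, in limma 3.58.1 (R 4.3.3) with an intensity trend, the line as a fixed block, two-sided tests and Benjamini-Hochberg adjustment over 7547 genes (prior degrees of freedom 7.3, residual 9). Arrays were paired by the line named in their titles. The labels do not say whether arrays came from separate cultures, so p-values reflect only how these 10 lines vary, and the number of arrays limits the precision. Exact sign-flip tests used 1024 patterns, with a smallest p of 0.00195. For 3 lines (P12-ICHIKAWA, MOLT3, CCRF-CEM) the DMSO label gives the growth medium a name that is otherwise a cell line's, and it is unclear if the medium was another. The code was tested on simulated data.

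The members, the lists and the pairs were chosen with earlier results of these data known. Named genes were the 34 members, called genes of the list of other nucleotide genes with MTAP, called G1/S genes and MYC. A planned pair of NME1 with NME2 could not be tested. Alternatives changed the pseudocount, the filter, the normalization, the probe set rule, the block, a covariate for RNA quality and the lines included.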

Additional observations from a re-analysis of the deposited data

Results flagged for a closer look

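Among 100 groups of 10 values checked, 12 had a highest or lowest value whose gap to the next exceeded the 95% limit for its range, where chance gives about 1 in 20. Their causes were not tested.

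KOPTK1 gave 4 of them. Its log2 change (CompE minus DMSO) of APRT was 1.196, with the next line at 0.0579, and that of DHODH was 1.207, with the next at 0.249. Its DMSO signal was lowest for PRPS1 (576.5, next 807.9) and for CAD (191.8, next 449.6). This line had ACTB 3′ to 5′ ratios of 9.76 in CompE and 3.32 in DMSO, the highest of each arm.

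P12-ICHIKAWA gave 3. DCK was at 270.3 in CompE, with the next line at 935.0, and at 269.5 in DMSO, with the next at 816.8. The change of PFAS there was 0.368, with the next line at -0.255.

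HPB-ALL gave 3. The change of IMPDH2 was -1.776, with the next line at -0.726. CMPK1 was lowest there, at 566.6 in CompE (next 968.1) and 659.8 in DMSO (next 984.1).

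The change of ADA in DND41 was -0.434, with the next line at -0.0239. The CompE signal of UMPS in ALL-SIL was 137.4, with the next line at 260.8.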

How the results depend on the processing

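Over all genes, 299 were called higher and 249 lower. With arrays centred on their median 114 were higher, a shift of the median of all genes by -0.0716. With the ACTB ratio as a covariate 152 were higher and 165 lower, and without the 3 lines whose labels name another medium 160 and 143, from fewer samples. Leaving out 1 line at a time gave 96 to 565 higher and 86 to 477 lower, and 4 to 13 enzymes lower. Without the replicate block, so with the line's spread in the residual, 0 genes and 0 enzymes were called by limma (365 genes and 8 enzymes at an unadjusted p below 0.05). The exact sign-flip test over single genes also called 0 (1834 and 15 at an unadjusted p below 0.05), with an exact adjusted p of 0.0569 for GART, ATIC, NME1, PRPS2 and DUT, which had the smallest p it can give. A random block by line called 537 genes and 7 enzymes. The count of 7 enzymes lower was 5 with no filter, which lost HPRT1 and CTPS1, 9 with the 60th percentile filter, 9 with quantile normalization and 10 with median centring, which kept all 7. In the same order, 1.41%, 5.15%, 3.81% and 4.51% of all genes were called lower. The mean of probe sets lost GART (-0.277, limma adjusted p = 0.075) and added PPAT. CTPS1 minus CTPS2 was -0.94 with a pseudocount of 1 and -0.50 with 64. No enzyme was called higher by limma under any alternative run.

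Of the pairs, IMPDH2 minus IMPDH1 was -0.517 with quantile normalization (exact adjusted p = 0.0521). PRPS1 minus PRPS2 was 0.0859 with the mean of probe sets and 0.293 without the 3 lines (exact adjusted p = 0.438 and 0.0833). RRM1 minus RRM2 was -0.192 with the mean of probe sets (exact adjusted p = 0.0117) and 0.0856 without the 3 lines. Leaving out 1 line gave -0.679 to -0.428, 0.201 to 0.295, -0.799 to -0.59 for CTPS1 minus CTPS2 and -0.119 to -0.00224 for RRM1 minus RRM2.

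Signs turned only among enzymes that were not called. With the ACTB covariate PRPS1 was at 0.00971, GUK1 at -0.0405, DTYMK at -0.0323, DCK at 0.113 and TYMS at -0.0453. TYMS was at -0.0447 with median centring, -0.0488 with quantile normalization, -0.0678 with the mean of probe sets, -0.0667 without the 3 lines and -0.0221 to 0.0820 with 1 line left out. DCK was at -0.0918 to 0.0294 with 1 line left out, DHODH at 0.0198 without the 3 lines and ADA at -0.0826 with quantile normalization, where another probe set was the brightest. For these alternatives the cause was not tested. Over all 31 enzymes, 609 alternative values kept side and direction, 37 lost the call, 18 gained it and 15 turned sign.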

Other observations

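Of the list of 45 further nucleotide genes, 8 had a probe set below the filter and were not tested: AK5, AMPD1, NT5E, GMPR, UPP1, CDA, TYMP and SAMHD1. SAMHD1, a triphosphohydrolase that degrades deoxynucleotides and inactivates cytarabine, had mean signals of 15.9 in CompE and 17.0 in DMSO. CDA, the cytidine deaminase, averaged 9.04 in CompE and 2.90 in DMSO, UPP1, a uridine phosphorylase, 20.6 in CompE and 10.6 in DMSO, and TYMP, the thymidine phosphorylase, 38.4 in CompE and 25.3 in DMSO. UPP1 was higher with CompE in 9 lines and CDA and TYMP in 8, at signals where MAS5 values are noisy, and no test was made. These 4 were named after their values were seen.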
